A study of Mus musculus with 9 samples.

Results

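The 10 genes Bhlhe40, Bhlhe41, Per1, Per2, Cry1, Cry2, Dbp, Nr1d1, Nr1d2 and Clock were followed in mouse embryonic stem (ES) cells deprived of Thr or of Cys. They were taken by symbol from the 20189 genes of the count table and all 10 were present. The set was chosen by the levels of Bhlhe41 itself, which responds strongly in the Thr-starved libraries. The values of the 10 genes in those libraries are therefore given as a description, without p-values, and the Cys-starved libraries are compared with the unstarved ones by a test. Wild-type E14 cells, a single established line of pluripotent mouse ES cells, gave 3 Thr-starved, 3 Cys-starved and 3 unstarved libraries. All were grown on gelatin in serum with leukemia inhibitory factor (LIF), which keeps ES cells undifferentiated, and the labels give a starvation of 3 h in medium with dialyzed serum and LIF, the control receiving all amino acids. The medium named in the labels was written for Arg and Leu, so that the titles alone name Thr and Cys. Nothing in the sources says that the samples of a group came from separate cultures, and p-values then measure the spread between these samples, which may be technical.

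The mammalian clock is a transcriptional loop. CLOCK and its partner BMAL1 (the Arntl product) bind E-boxes and activate, among others, the Per and Cry genes, whose proteins return to inhibit CLOCK and BMAL1. BHLHE40 and BHLHE41, also called DEC1 and DEC2, are basic helix-loop-helix (bHLH) repressors of the Orange family that occupy the same E-boxes and are themselves clock output. A second loop runs through NR1D1 and NR1D2 (REV-ERB alpha and beta), nuclear receptors that repress genes carrying ROR response elements (RREs), and a further output runs through DBP, an activator at D-boxes. Undifferentiated ES cells express many of these genes but do not show the sustained daily oscillation of differentiated cells.

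Promoter windows of RefSeq (build GRCm38.p6, 250 bases before to 50 bases after a transcription start, 300 bases each) were read for 8 of the 10 genes, with 11 windows in all because Per1 and Clock had more than 1. None was at hand for Bhlhe40 and Per2. Both strands were searched for the E-box CACGTG, the E′-box CACGTT, the cAMP response element (CRE) TGACGTCA and its core TGACG, the D-box TTATGNAA, the RRE core AGGTCA and the C/EBP-ATF response element (CARE) TGATGNAA. Over the 32851 windows of that length in the mouse set, 7.15% held the E-box, 4.68% the E′-box, 1.79% the CRE, 20.8% the CRE core (which lies within every CRE), 3.38% the D-box, 16.3% the RRE core and 3.97% the CARE. Below are the windows of Bhlhe41 and of the 4 genes called lower with Thr starvation (Nr1d1, Nr1d2, Per1, Dbp). The window of Cry1, which was nearly level and holds an E-box, is also shown. All are written 5′ to 3′, and capitals mark the matches. A link between motifs and changes was not tested.
Bhlhe41, chr6:145865371-145865670, minus strand: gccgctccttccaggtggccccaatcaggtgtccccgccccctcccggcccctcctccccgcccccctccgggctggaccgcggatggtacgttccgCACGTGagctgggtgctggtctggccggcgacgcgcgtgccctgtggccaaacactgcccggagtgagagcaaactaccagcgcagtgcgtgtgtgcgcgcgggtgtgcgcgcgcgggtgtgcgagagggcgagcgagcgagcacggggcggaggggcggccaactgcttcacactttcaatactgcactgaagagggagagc
Nr1d1, chr11:98775328-98775627, minus strand: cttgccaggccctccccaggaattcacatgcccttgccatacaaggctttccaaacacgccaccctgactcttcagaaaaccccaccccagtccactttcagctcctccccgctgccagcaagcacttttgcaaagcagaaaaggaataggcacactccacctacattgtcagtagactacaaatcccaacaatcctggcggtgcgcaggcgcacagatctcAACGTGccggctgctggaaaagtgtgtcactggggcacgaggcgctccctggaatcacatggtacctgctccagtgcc
Nr1d2, chr14:18239057-18239356, minus strand: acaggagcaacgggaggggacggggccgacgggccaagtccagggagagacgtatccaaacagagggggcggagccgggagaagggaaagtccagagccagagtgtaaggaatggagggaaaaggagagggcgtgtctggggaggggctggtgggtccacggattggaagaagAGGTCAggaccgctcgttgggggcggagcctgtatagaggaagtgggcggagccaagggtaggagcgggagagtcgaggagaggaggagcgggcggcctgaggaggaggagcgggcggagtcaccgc
Per1, upstream window, chr11:69098699-69098998, plus strand: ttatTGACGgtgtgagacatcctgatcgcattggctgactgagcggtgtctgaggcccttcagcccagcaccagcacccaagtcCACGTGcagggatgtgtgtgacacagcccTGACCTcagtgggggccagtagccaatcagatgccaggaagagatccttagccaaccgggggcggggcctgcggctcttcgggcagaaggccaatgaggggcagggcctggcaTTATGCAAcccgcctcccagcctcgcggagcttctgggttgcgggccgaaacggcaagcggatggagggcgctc
Dbp, chr7:45704997-45705296, plus strand: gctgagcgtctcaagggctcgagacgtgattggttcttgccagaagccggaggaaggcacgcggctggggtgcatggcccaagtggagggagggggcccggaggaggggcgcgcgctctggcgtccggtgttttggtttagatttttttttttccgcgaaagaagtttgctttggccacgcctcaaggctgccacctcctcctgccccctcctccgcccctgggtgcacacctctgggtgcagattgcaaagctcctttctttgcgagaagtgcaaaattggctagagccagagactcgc
Cry1, chr10:85185005-85185304, minus strand: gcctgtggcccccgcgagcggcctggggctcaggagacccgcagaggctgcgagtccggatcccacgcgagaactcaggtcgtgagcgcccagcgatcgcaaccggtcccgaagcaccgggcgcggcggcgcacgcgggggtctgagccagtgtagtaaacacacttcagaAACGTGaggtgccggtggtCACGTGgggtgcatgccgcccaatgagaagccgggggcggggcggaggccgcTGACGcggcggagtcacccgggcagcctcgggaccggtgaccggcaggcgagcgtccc

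An E-box lay 153 bases before the Bhlhe41 start, 166 before the upstream Per1 start and 60 before the Cry1 start. The E′-box was found 28 bases before the Nr1d1 start, 79 before that of Cry1 and 166 before that of Cry2. An RRE core stood 77 bases before the Nr1d2 start, 137 before the upstream Per1 start and 119 before one Clock start. Per1 also held the D-box 24 bases before its upstream start. The CRE core was found in both Per1 windows, at 246 and 132 bases, and 8 bases before the Cry1 start and 209 before the Cry2 start. The Dbp window held none of the 7 motifs, and no window of the 8 genes held a full CRE or a CARE. Most of these RefSeq starts lie inside the gene's span in the GENCODE annotation: by 138 bases for Bhlhe41, 159 for Dbp, 10 for Cry1, 21 for Nr1d2, 3732 and 4935 for Per1 and 244 and 1290 for 2 of the 3 Clock windows. The other Clock start is at the edge of the span, and those of Cry2 and Nr1d1 lie 26 and 44 bases before it. A match describes these letters only, and binding was not measured.

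**Figure D1:**
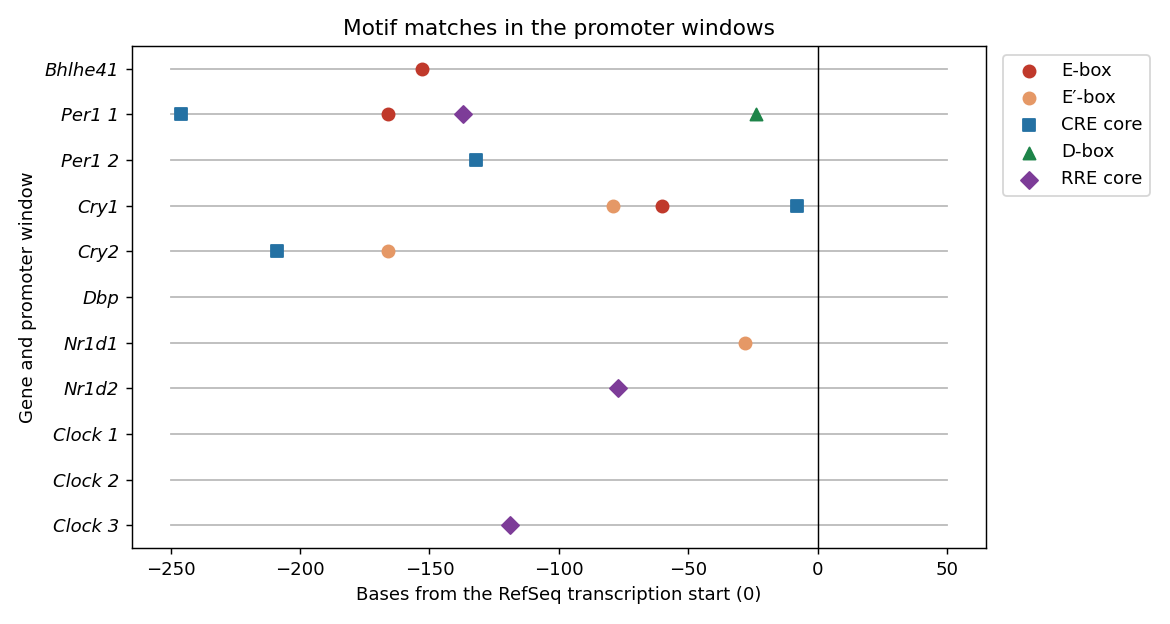
Motif matches in the 11 promoter windows (rows: gene and window number) against the distance in bases from the RefSeq start at 0. The E-box of Bhlhe41 lies at 153 bases before the start, that of Per1 at 166 and that of Cry1 at 60, and the Dbp window is empty.

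Total counts ran from 48763102 to 74962733 per library. Even counts made up 67.8% of the 28226 values from 1 to 20. For low counts as deposited, the chi-square between replicates averaged 1.98 to 2.13 per gene over the pairs of libraries. With every count halved it was 0.997 to 1.075 at pair sums of 10 to 100 and 1.308 to 2.603 at sums of 1000 to 10000, where independent counts give about 1. On that scale low genes differed between replicates by about the sampling noise, and abundant genes by more in every pair. The pluripotency markers, Pou5f1, Nanog and Sox2 among them, were all 10 present, with a summed level of 4355 to 4393 CPM (counts scaled to a fixed library size) in the unstarved, 4334 to 4414 in the Thr-starved and 4104 to 4150 in the Cys-starved libraries. These sums hold changes in both directions: all 10 were called with Thr starvation (4 higher, 6 lower) and with Cys starvation (3 higher, 7 lower). Of all genes tested, 63.0% were called with Thr and 36.3% with Cys. Among these abundant genes small differences were called, such as 0.123 on the log2 scale for Zfp42 with Thr. With Thr, Klf4 was 1.81-fold higher, Nanog 1.34-fold lower and Utf1 3.23-fold lower (307.4 to 95.07 CPM). Markers of other cell types (fibroblast, endoderm, neural, mesoderm and blood genes) had 10 of 12 genes in the table (Postn and Ptprc were not among its rows) and summed to 32.4 to 34.2, 29.2 to 29.8 and 34.4 to 36.4 CPM in the same order. With Thr 3 of them were higher and 4 lower, Thy1 3.64-fold lower and Cd34 2.77-fold lower among them, and with Cys 3 were higher and 2 lower. These marker genes were named after their values were seen. Their part in the results below was not tested. In bulk RNA, fewer cells expressing a gene and less of its RNA per cell cannot be told apart.

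Bhlhe41 (ENSMUSG00000030256, chr6:145858243-145865558, minus strand, GRCm38) was close to silent in unstarved ES cells and was the member that stood out with Thr starvation. Its level was 0.562, 0.529 and 0.445 CPM in the unstarved libraries, 9.57, 9.46 and 10.3 CPM in the Thr-starved libraries and 0.540, 0.464 and 0.956 CPM in the Cys-starved libraries. All 3 Thr-starved libraries stood far above the other 6, and the unstarved and Cys-starved libraries overlapped. These levels rested on 24 to 34 deposited counts per unstarved library, 451 to 756 per Thr-starved library and 30 to 57 per Cys-starved library, and as even counts prevail, the independent fragments behind them may be fewer. The fitted difference between Thr-starved and unstarved cells was 4.25 on the log2 scale (SE 0.163, 95% interval 3.91 to 4.58), a 19.0-fold higher level. Against Cys-starved cells it was 3.92 (SE 0.154), or 15.1-fold. Between Cys-starved and unstarved cells the difference was 0.33 (95% interval -0.17 to 0.83), and it was -0.04 without Cys-starved replicate 3, the highest of the 3. The annotation places 1280 bases of a gene of the opposite strand, Gm43909, over Bhlhe41 exons, which the count table does not list, and its part in the counts was not tested.

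Bhlhe40 (ENSMUSG00000030103, chr6:108660629-108666925, plus strand), the paralog on the same chromosome, was well expressed without starvation and changed far less. It measured 19.4, 20.3 and 20.1 CPM in the unstarved libraries, 30.6, 28.4 and 29.4 CPM in the Thr-starved and 20.93, 19.97 and 20.43 CPM in the Cys-starved libraries. The Thr-starved libraries lay above all others, by 0.57 on the log2 scale against unstarved (SE 0.0453, 95% interval 0.47 to 0.66, 48.0% higher). With Cys starvation the difference was 0.04 (95% interval -0.06 to 0.13, adjusted p = 0.58). Per kilobase of exon, the Bhlhe41 level was 0.018 ± 0.00238 of that of Bhlhe40 in unstarved cells, 0.232 ± 0.0133 in Thr-starved cells and 0.0224 ± 0.00906 in Cys-starved cells (SD, n = 3). The exons of Bhlhe40 share 118 bases with an antisense gene, 0610040F04Rik, at 0.195 CPM in unstarved, 0.202 in Thr-starved and 0.149 in Cys-starved cells. Bhlhe40 stayed the more abundant of the pair in every library.

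**Figure D2:**
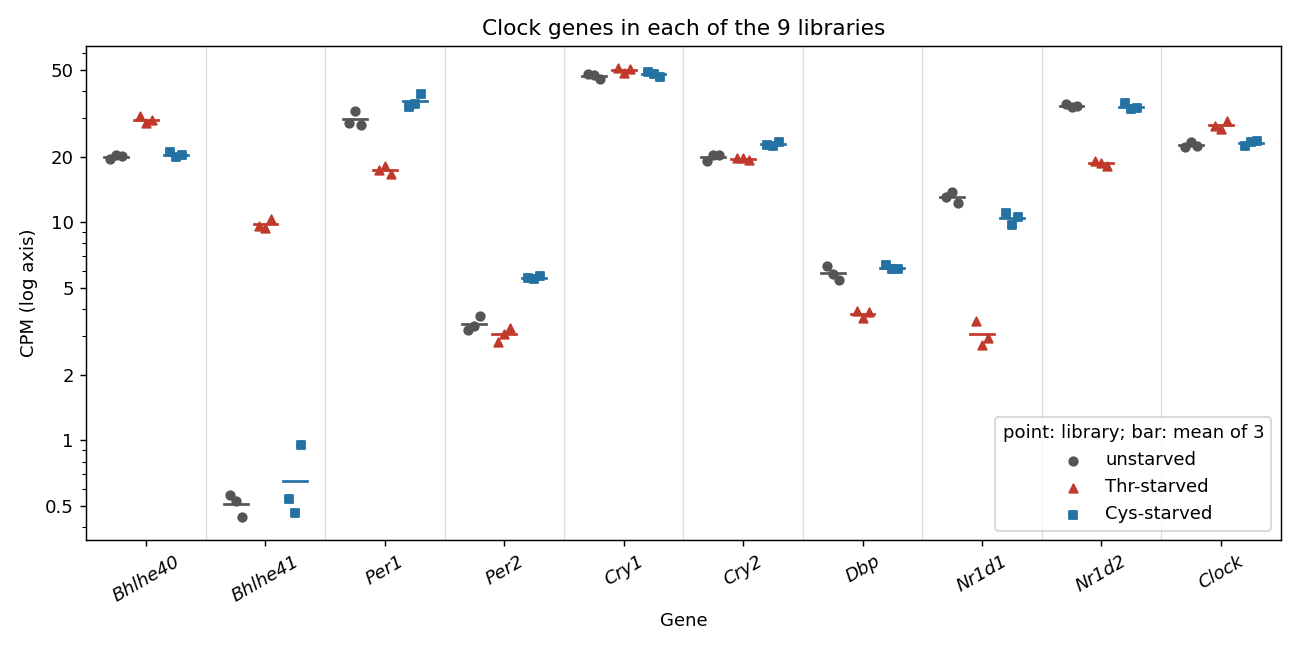
Level of each of the 10 genes (CPM, log axis) in the 3 unstarved, 3 Thr-starved and 3 Cys-starved libraries, each point being a library and each bar the mean of 3. Bhlhe41 sits at 9.46 to 10.3 CPM in the Thr-starved libraries and below 1 CPM in the other 6, whereas Nr1d1 drops to 2.75 to 3.51 CPM.

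The REV-ERB genes were both lower with Thr starvation. Nr1d1 (ENSMUSG00000020889, chr11:98767932-98775333, minus strand) measured 13.0, 13.8 and 12.3 CPM in unstarved, 3.51, 2.75 and 2.96 CPM in Thr-starved and 11.1, 9.69 and 10.6 CPM in Cys-starved libraries. The 3 groups did not overlap, with Thr-starved cells lowest and unstarved cells highest. Against unstarved cells the log2 difference was -2.09 with Thr (SE 0.0903, 95% interval -2.28 to -1.90, 4.26-fold lower). With Cys starvation Nr1d1 fell by 20.1% (log2 difference -0.32, SE 0.0755, adjusted p = 0.0016, lower in 3 of 3 libraries). Its exons share 263 bases with those of Thra, a thyroid hormone receptor gene on the opposite strand, which measured 4.88 CPM in unstarved, 2.88 in Thr-starved and 5.41 in Cys-starved cells, and whose part in the Nr1d1 counts was not tested.

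Nr1d2 (ENSMUSG00000021775, chr14:18204054-18239127, minus strand) measured 34.9, 33.8 and 34.1 CPM in unstarved, 19.1, 18.6 and 18.1 CPM in Thr-starved and 35.2, 33.0 and 33.5 CPM in Cys-starved libraries. The Thr-starved libraries were separate from all others, at a log2 difference of -0.88 from unstarved (SE 0.0433, 95% interval -0.97 to -0.79). For Cys the difference was -0.02 (95% interval -0.10 to 0.07, adjusted p = 0.82), and a difference beyond this interval was not detected. Per kilobase, the Nr1d1 level was 0.67 ± 0.0443 of that of Nr1d2 in unstarved cells, 0.29 ± 0.0321 in Thr-starved cells and 0.541 ± 0.022 in Cys-starved cells (SD, n = 3).

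Of the Period genes, whose proteins form the repressive arm with the cryptochromes, Per1 and Per2 were both called higher with Cys starvation. With Thr, Per1 was called lower and Per2 was not called, and both were lower in Thr-starved than in Cys-starved cells. Per1 (ENSMUSG00000020893, chr11:69095217-69109960, plus strand) measured 28.4, 32.4 and 28.1 CPM in unstarved, 17.4, 18.2 and 16.6 CPM in Thr-starved and 33.9, 35.0 and 38.6 CPM in Cys-starved libraries. All Thr-starved libraries were below and all Cys-starved libraries above the unstarved ones. The log2 difference from unstarved was -0.77 with Thr (SE 0.0597, 95% interval -0.90 to -0.65) and 0.27 with Cys (SE 0.0551, adjusted p = 0.00038, 20.9% higher). Directly compared, Per1 was 2.07-fold lower in Thr-starved than in Cys-starved cells, at a log2 difference of -1.05 (SE 0.0586).

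Per2 (ENSMUSG00000055866, chr1:91415982-91459324, minus strand) measured 3.23, 3.34 and 3.71 CPM in unstarved, 2.82, 3.08 and 3.29 CPM in Thr-starved and 5.539, 5.502 and 5.685 CPM in Cys-starved libraries. The Cys-starved libraries were well above the rest, and the Thr-starved and unstarved libraries overlapped. Per2 rose 1.63-fold with Cys starvation (log2 difference 0.71, SE 0.0975, adjusted p = 4.8e-06, higher in 3 of 3 libraries), the largest absolute log2 difference of any member in that comparison. With Thr the difference was -0.15 (95% interval -0.37 to 0.07). Directly compared, Per2 was 1.81-fold lower in Thr-starved than in Cys-starved cells, at a log2 difference of -0.86 (SE 0.0995). The Per1 level per kilobase was 9.04 ± 1.11 times that of Per2 in unstarved, 5.94 ± 0.603 times in Thr-starved and 6.68 ± 0.348 times in Cys-starved cells (SD, n = 3). The ratio of the lowest unstarved library, 7.87, was above that of every starved library.

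The cryptochrome genes differed least with Thr starvation. Cry1 (ENSMUSG00000020038, chr10:85131700-85185064, minus strand), whose promoter holds both E-box forms, measured 47.8, 47.3 and 45.5 CPM in unstarved, 50.8, 48.2 and 50.3 CPM in Thr-starved and 49.03, 47.70 and 46.47 CPM in Cys-starved libraries. The Thr-starved libraries lay just above the unstarved ones, by 0.09 on the log2 scale (SE 0.0358, 95% interval 0.01 to 0.16), and this call was lost at an adjusted p of 0.01 and when any 1 of 4 libraries was left out, with values of 0.065 to 0.086. Cys-starved and unstarved libraries overlapped (difference 0.03, 95% interval -0.05 to 0.10, adjusted p = 0.63). Cry2 (ENSMUSG00000068742, chr2:92403646-92434043, minus strand) measured 19.2, 20.4 and 20.3 CPM in unstarved, 19.8, 19.7 and 19.3 CPM in Thr-starved and 22.6, 22.5 and 23.3 CPM in Cys-starved libraries. The Cys-starved libraries stood above both other groups, and Cry2 rose by 14.3% with Cys starvation (log2 difference 0.19, SE 0.0456, adjusted p = 0.0018). With Thr its difference was -0.03 (95% interval -0.13 to 0.07). The Cry2 annotation overlaps 295 exon bases of D930015M05Rik on the other strand, which the table does not list, and its part was not tested.

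Dbp (ENSMUSG00000059824, chr7:45705088-45710203, plus strand), the D-box activator, measured 6.28, 5.77 and 5.43 CPM in unstarved, 3.92, 3.63 and 3.87 CPM in Thr-starved and 6.37, 6.14 and 6.10 CPM in Cys-starved libraries. The Thr-starved libraries were below the other 6, at a log2 difference of -0.62 from unstarved (SE 0.0899, 95% interval -0.80 to -0.43). With Cys the difference was 0.09 (95% interval -0.09 to 0.26, adjusted p = 0.46). Dbp shares 539 exon bases with Sphk2, a sphingosine kinase gene on the opposite strand, at 37.1 CPM in unstarved, 25.3 in Thr-starved and 40.3 in Cys-starved cells. Sphk2 was the more abundant and moved the same way, and its part in the Dbp counts was not tested.

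Clock (ENSMUSG00000029238, chr5:76209868-76304792, minus strand), the activator of the loop, measured 22.2, 23.3 and 22.4 CPM in unstarved, 27.7, 26.9 and 29.1 CPM in Thr-starved and 22.4, 23.4 and 23.6 CPM in Cys-starved libraries. The Thr-starved libraries were above all others, by 0.31 on the log2 scale against unstarved (SE 0.0456, 95% interval 0.21 to 0.40). With Cys the difference was 0.03 (95% interval -0.06 to 0.13, adjusted p = 0.64). A pseudogene copy within the gene on the same strand, Ube2n-ps1, shares no exon bases with Clock and measured 60.0 CPM in unstarved, 71.4 in Thr-starved and 58.4 in Cys-starved cells.

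**Figure D3:**
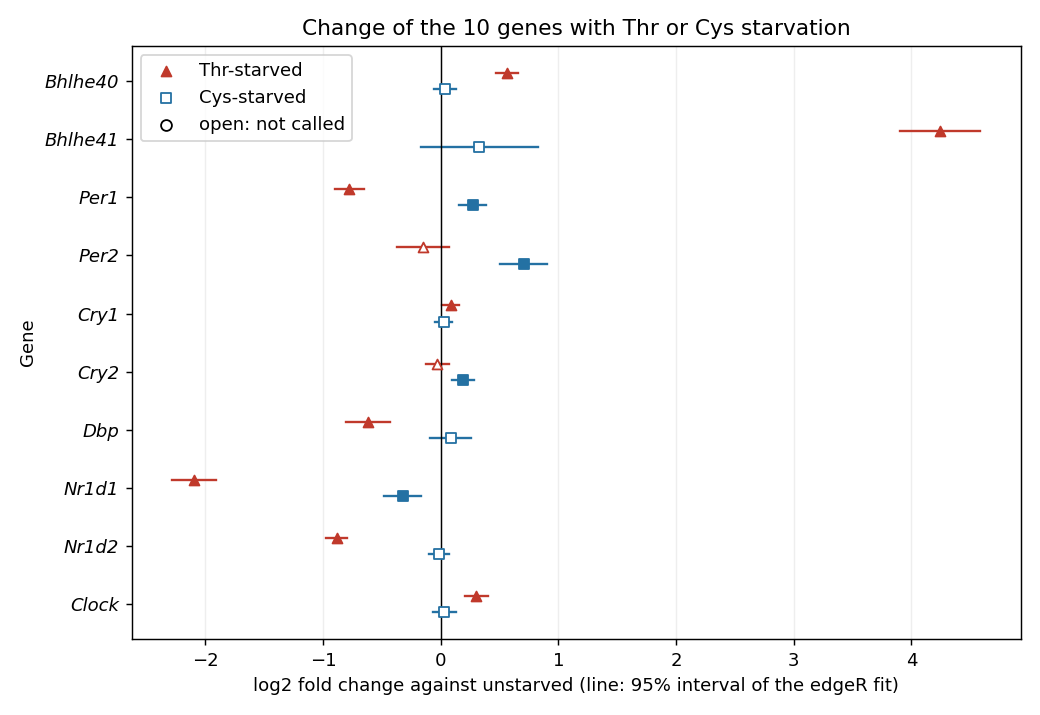
Log2 fold change of each of the 10 genes with Thr starvation (triangles) and Cys starvation (squares) against the same unstarved libraries, with the 95% interval of the edgeR fit as a line and open symbols for genes not called. Bhlhe41 at 4.25 and Nr1d1 at -2.09 lie farthest out with Thr, and Per2 at 0.71 with Cys.

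Counted together, 8 of the 10 genes were called with Thr starvation, 4 higher and 4 lower, where 63.0% of all genes tested were called (31.1% higher, 31.9% lower). Both REV-ERB genes, Per1 and Dbp were the lower ones, and Bhlhe40, Bhlhe41, Cry1 and Clock the higher ones. For those 8 genes the libraries of both groups did not overlap, as for 66.5% of all genes. Bhlhe41 and Nr1d1 passed an absolute log2 difference of 1, as did 13.2% of all genes. With these libraries used in choosing the set, nothing is read from these counts. The median log2 difference was -0.09 over the 10 genes and -0.02 over all genes, and the median absolute difference was 0.59 and 0.39.

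With Cys starvation 4 of the 10 genes were called (Per1, Per2 and Cry2 higher, Nr1d1 lower) beside 36.3% of all genes (17.5% higher, 18.8% lower), a share of the members near the background. The same 4 genes had libraries that did not overlap, as had 46.4% of all genes. None of the 10 passed an absolute log2 difference of 1, which 1.47% of all genes did. The median absolute difference was 0.14 over the members and 0.17 over all genes. Of all called genes 48.2% were higher under TMM normalization and 36.8% under the size factors of the deposited table, and the 4 member calls were made under both. Between Thr- and Cys-starved cells 9 of 10 members were called, 3 higher and 6 lower, beside 62.0% of all genes (30.4% higher, 31.6% lower), with libraries apart for 9 members and for 65.8% of all genes. Bhlhe41, Nr1d1 and Per1 passed an absolute log2 difference of 1 there, as did 11.4% of all genes. These comparisons share their control or starved libraries, so that their values are not independent of each other.

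Levels between genes were compared per kilobase of exon, with all annotated exons of a gene merged. The order and the ratios above depend on this length, which may exceed that of the transcripts expressed. In unstarved cells Cry1 was highest at 14.04 ± 0.369 CPM per kilobase, followed by Nr1d2 (6.33), Per1 (5.26), Nr1d1 (4.24), Bhlhe40 (4.23), Cry2 (3.16), Dbp (1.95), Clock (1.65), Per2 (0.585) and Bhlhe41 at 0.0762 ± 0.00899 (SD, n = 3). Of these neighbours Nr1d1 and Bhlhe40 overlapped between libraries. In Thr-starved cells Cry1 remained highest (14.9), Bhlhe40 came next (6.26), and Bhlhe41 (1.46 ± 0.0689) stood between Clock (2.03) and Dbp (1.27), while Nr1d1 (0.998) was above Per2 alone (0.523). Nr1d2 (3.44), Cry2 (3.10) and Per1 (3.09) lay between Bhlhe40 and Clock, and the libraries of Cry2 and Per1 overlapped. In Cys-starved cells the order was Cry1 (14.3), Per1 (6.37), Nr1d2 (6.27), Bhlhe40 (4.35), Cry2 (3.61), Nr1d1 (3.39), Dbp (2.07), Clock (1.69), Per2 (0.952) and Bhlhe41 (0.0972 ± 0.0394), with overlap between Per1 and Nr1d2 and between Cry2 and Nr1d1. Bhlhe41 was the lowest of the 10 in unstarved and Cys-starved cells and the seventh in Thr-starved cells.

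**Figure D4:**
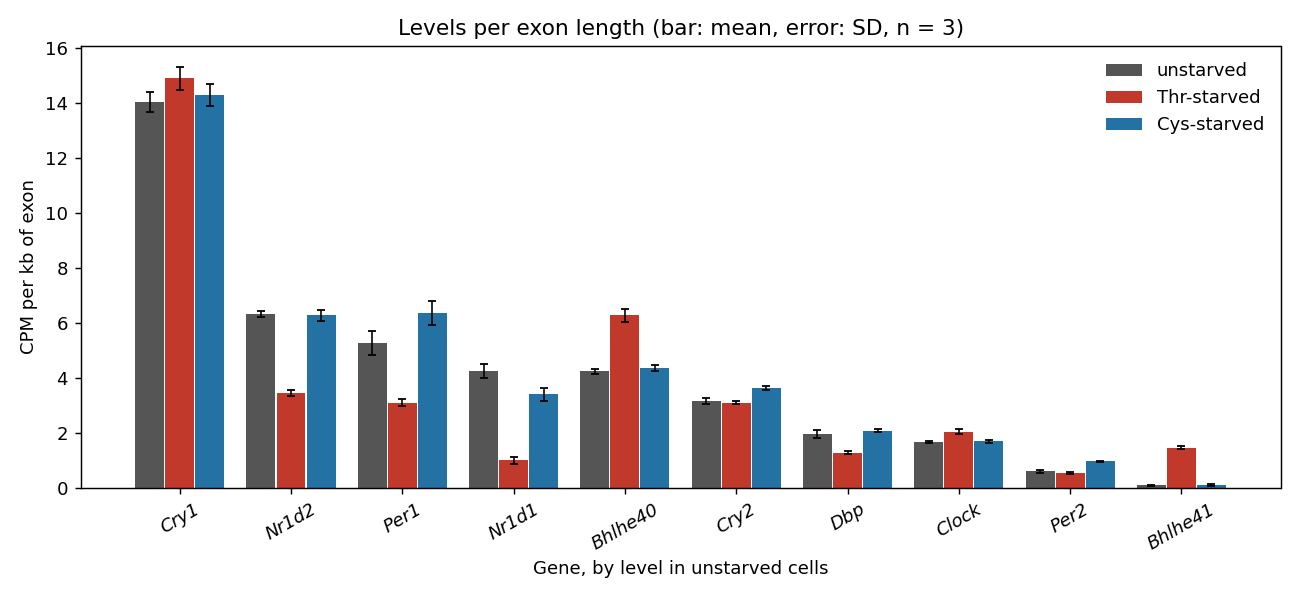
Mean level per kilobase of exon (CPM per kb, bars starting at 0, error bars SD, n = 3) of the 10 genes in unstarved, Thr-starved and Cys-starved cells, ordered by the unstarved level. Cry1 stays between 14.04 and 14.9 in all groups, whereas Bhlhe41 is visible in Thr-starved cells only, at 1.46.

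Likeness to Bhlhe41 was read among genes that are no members and averaged at least 1 CPM over the 9 libraries. The genes with the most similar pattern were Gadd45g, Dll1, 2410006H16Rik, Dusp8 and Insm1. Their root mean square distances were 0.216, 0.276, 0.35, 0.422 and 0.442 in log2(CPM + 0.5) relative to the unstarved mean. Gadd45g, a stress-induced growth arrest gene, averaged 1.13 CPM in unstarved, 15.8 in Thr-starved and 1.56 in Cys-starved cells. Dll1, a Notch ligand, averaged 1.38, 14.5 and 1.83 CPM in the same order. Insm1, a zinc finger factor of neuroendocrine development, averaged 1.36, 11.5 and 1.57 CPM. Dusp8, a MAP kinase phosphatase gene, averaged 0.328, 9.58 and 0.886 CPM and so passed the filter through the Thr-starved libraries alone. The level of 2410006H16Rik was 25.8, 224 and 39.9 CPM. With Cys starvation the log2 difference was 1.41 for Dusp8 and 0.63 for 2410006H16Rik, beside 0.47 for Gadd45g, 0.405 for Dll1 and 0.21 for Insm1. With a pseudocount of 0.1, Atp12a (0.861, 10.9 and 1.90 CPM) took the place of Dusp8. These genes were picked for this likeness, which is a description and carries no test.

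The rest of the clock pathway was read from a list of 24 genes that are no members, 23 of them in the table. With Thr starvation 8 were called higher, 10 lower and 5 not called (median log2 difference -0.04), beside 63.0% of all genes called. With Cys starvation 3 were higher, 7 lower and 13 not called (median -0.07), beside 36.3%, and 3 were higher and 10 lower with the deposited size factors. No gene of at least 1 CPM in this list reached an absolute log2 difference of 1 from unstarved cells. The genes named next were chosen after their values were seen. Among list genes of at least 1 CPM, the largest Thr differences were falls of Arntl2 (-0.86, adjusted p = 5e-06) and Usp2 (-0.86, adjusted p = 2.6e-07). Arntl, which encodes the CLOCK partner BMAL1, was not called with Thr (0.04, adjusted p = 0.47) or with Cys (0.05, adjusted p = 0.5). Ciart, a repressor of the same loop, rose with both, from 16.5 ± 0.767 CPM to 26.4 ± 1.45 with Thr (log2 difference 0.68, adjusted p = 9.6e-11) and to 27.8 ± 1.03 with Cys (0.75, adjusted p = 1.3e-10). Nfil3, the D-box repressor opposed to DBP, fell by 0.45 on the log2 scale with Thr (4.58 ± 0.233 to 3.33 ± 0.300 CPM, adjusted p = 0.00053) and rose by 0.79 with Cys (to 7.92 ± 0.639 CPM, adjusted p = 3.6e-07). Compared directly, Nfil3 was lower in Thr- than in Cys-starved cells (log2 difference -1.24, adjusted p = 1.1e-10). Per3, the third Period gene, fell by 0.56 with Thr (adjusted p = 3.9e-05) and was at 0.21 with Cys (adjusted p = 0.077). Between Thr- and Cys-starved cells its log2 difference was -0.77 (adjusted p = 3.5e-07).

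The 10 further bHLH-Orange repressors were HES and HEY factors and Helt, several of which act downstream of Notch. Of these 10, 7 were in the table and 4 averaged 1 CPM or more. With Thr starvation Hes1 rose (log2 difference 0.40, adjusted p = 1e-07), Hes6 (-0.66, adjusted p = 1.3e-08), Hey1 (-0.44, adjusted p = 0.0029) and Hey2 (-0.54, adjusted p = 0.006) fell, and 3 were not called, with a list median of -0.55, beside 63.0% of all genes called. With Cys starvation Hes1 was the 1 gene of 7 called, beside 36.3% of all genes, at -0.13 (adjusted p = 0.032), a call lost at an adjusted p of 0.01 and without unstarved replicate 3 or Cys-starved replicate 1 or 3. These 4 genes were named after their values were seen. Beside them Bhlhe40 and Bhlhe41 differed from unstarved by 0.57 and 4.25 with Thr. The set was chosen by this Bhlhe41 response, so its place beside the other repressors is a description.

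**Figure D5:**
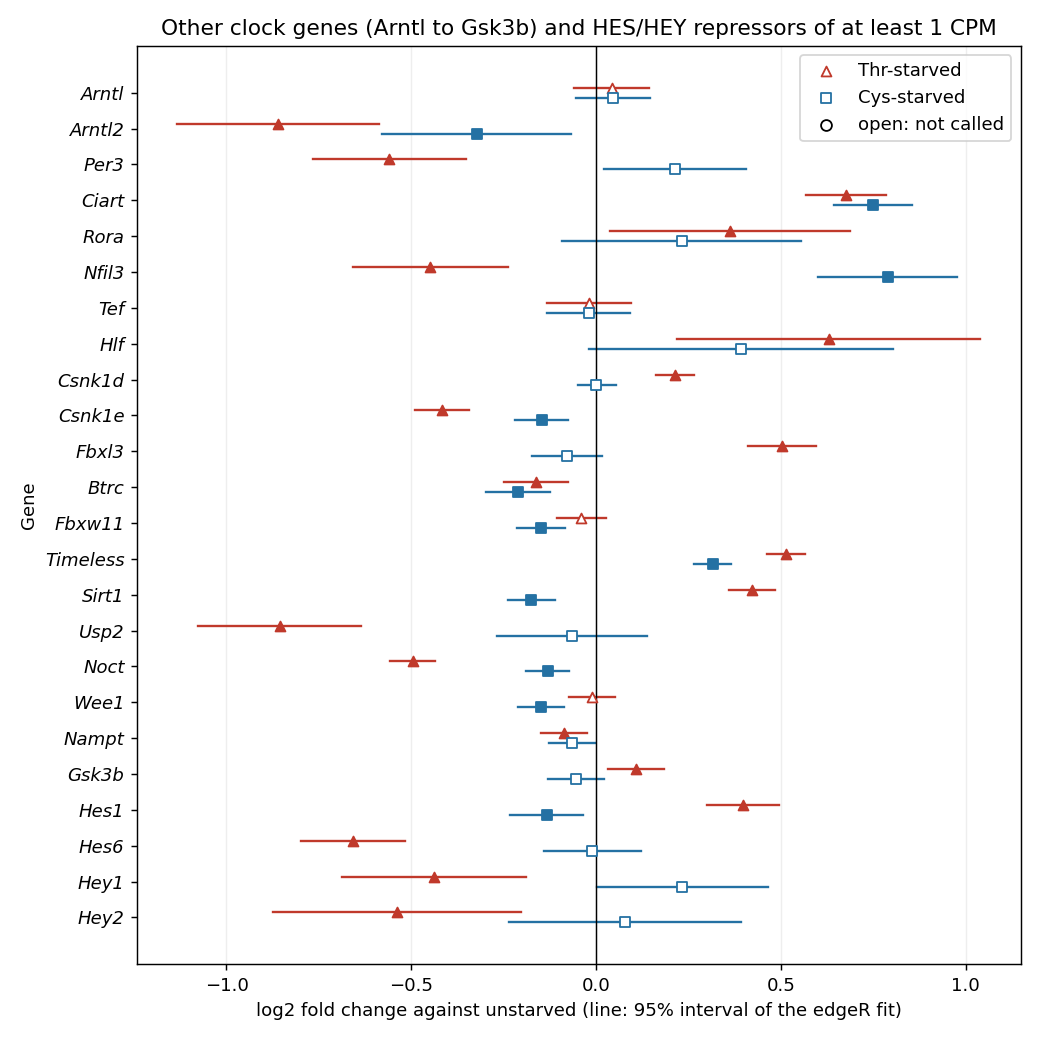
Log2 fold change against unstarved of the other clock genes (Arntl to Gsk3b) and of the HES and HEY repressors averaging 1 CPM or more, for Thr (triangles) and Cys starvation (squares), with 95% intervals and open symbols for genes not called. Every value lies between -1 and 1, and Ciart at 0.68 and 0.75 and Nfil3 at -0.45 and 0.79 are the pairs described in the text.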

How the data were processed

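RNA was measured in 9 libraries, 3 per group, from poly(A)-selected, strand-marked, paired-end sequencing. The authors mapped the reads with STAR 2.7.4a to GRCm38 and deposited counts per gene made with HTSeq, whose strand and overlap settings are not given in the sources used here. A second deposited table holds the signal, the same counts divided by size factors, for which the authors name DESeq2. It served only for an alternative scaling. Its factors ran from 1.12 to 1.72 over the 9 libraries, and which libraries they were estimated on was not tested. They moved the median log2 difference of all genes with Cys by -0.042 from that under TMM. Groups were taken from the sample titles.

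The 20143 genes with a total count of at least 1 were fitted in R 4.3.3 with edgeR 4.0.16 (TMM, quasi-likelihood F test, all 9 libraries in 1 fit) for 3 comparisons, with Benjamini-Hochberg adjustment over all genes and calls at 0.05, after the script was tested on simulated data. CPM used TMM library sizes. The common biological coefficient of variation was 3.53%. The members and lists were chosen with earlier results of these data known. Every member was named; of the 2 lists, genes of at least 1 CPM called at an absolute log2 difference of 1 were to be named with values, and other list genes given with values were chosen after their values were seen; the 5 genes most like Bhlhe41 were named by distance. Single list genes averaging under 1 CPM were counted and are not reported here. Symbols and positions came from the GENCODE annotation of GRCm38, promoters from RefSeq. Alternatives were 18 in number: RLE and deposited size factors, filters, halved counts, DESeq2 1.42.0, fits of the compared groups alone, a replicate block, a stricter threshold and each library left out. The total counts of 48763102 to 74962733 set the precision of low genes, and intervals cover the spread between libraries in the fit.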

Additional observations from a re-analysis of the deposited data

How the results depend on the processing

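Over 18 alternatives the 10 genes gave 540 values, of which 529 kept direction and call. The 5 lost calls were all of Cry1 with Thr starvation, at 0.065 to 0.086 in 4 fits that left out a library (unstarved replicate 3, Cys-starved replicate 2, Thr-starved replicate 1 or 3) and at an adjusted p of 0.01 or less. Cry1 was gained between Thr- and Cys-starved cells (0.105) with the deposited size factors. The signs that turned were of differences near 0 with Cys starvation, none called: Bhlhe40 (-0.004), Cry1 (-0.016) and Clock (-0.01) with the deposited size factors, Nr1d2 (0.004) without Cys-starved replicate 2, and Bhlhe41, which ranged from -0.038 without Cys-starved replicate 3 to 0.529 without replicate 2. The cause was not tested. Bhlhe41 stayed at 4.16 to 4.32 with Thr starvation in all 18. The Thr-starved libraries were used in choosing the set. The member values that include them therefore describe the processing only and add no support for a response.

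No clear pairing of the libraries by the replicate numbers of the titles was seen, though a weak one could be missed with 3 libraries per group. Deviations of same-numbered libraries correlated at 0.106, -0.073 and 0.01 between Thr-starved and unstarved and -0.06, -0.049 and -0.079 between Cys-starved and unstarved libraries (11410 genes). Between Thr- and Cys-starved libraries they correlated at -0.135, -0.043 and -0.244. With the replicate block 12488, 7063 and 12334 genes were called in these comparisons instead of 12689, 7313 and 12488, and the block changed no call of a member. Leaving out 1 library gave 12096 to 12689, 6520 to 7475 and 11788 to 12540 genes, 7 to 8, 4 and 9 members, 15 to 18, 9 to 11 and 14 to 15 other clock genes, and 4 to 5, 0 to 1 and 5 to 6 HES and HEY genes. The last count for Cys was also 0 at an adjusted p of 0.01 or less.

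List genes averaging 1 CPM or more gave 1296 values, of which 1236 kept direction and call, 26 lost and 5 gained a call and 29 turned sign without a call. These are given below with the range over the fits that left out a library. With Cys starvation Csnk1d was at -0.003 (RLE, DESeq2), -0.04 (deposited size factors), -0.001 (filterByExpr) and -0.013 to 0.014, Tef at -0.046 to 0.025, Hes6 at -0.061 to 0.054 and Hey2 at -0.025 to 0.144. With Thr starvation Tef was at -0.058 to 0.033 and Wee1 at -0.034 to 0.013. Between Thr- and Cys-starved cells Arntl was at 0.006 (RLE, DESeq2), 0.04 (deposited size factors), 0.004 (filterByExpr) and -0.035 to 0.021, Nampt at 0.023 (deposited size factors) and -0.054 to 0.001, and Tef at -0.038 to 0.056. Depth limits Bhlhe41 without Thr starvation most, at 24 to 57 deposited counts per library.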
